A study of Mus musculus with 14 samples.

Results

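The response of mouse lung group 2 innate lymphoid cells (ILC2s) to the alarmin IL-33 was examined across all genes in 8 RNA-seq libraries of the 14 in the series. The libraries were chosen by their labels, 4 as IL-33 stimulated and 4 as unstimulated, and no measured value entered the choice. ILC2s had been sorted from the lungs of 8 female B6 mice, taken individually according to the design text of the series, as live cells negative for lineage markers and CD3 and positive for CD90.2. About 15000 cells per mouse were placed in complete RPMI, either unstimulated or with 20 ng/mL of IL-33 over 24 h. The study's general culture methods include 20 ng/mL of IL-2, while its RNA-seq methods do not name IL-2 for the 24 h cultures. Whether IL-2 was present in either group is thus not certain. The series' design text and the study's methods give 24 h for both groups. The labels of the unstimulated samples give no time, and the study's results call these cells ex vivo, so if they were not cultured an effect of IL-33 and one of time in culture cannot be told apart. Of 53278 genes listed, 28268 were detected in some library and 15466 had enough counts to be tested.

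ILC2s are tissue-resident lymphocytes that lack antigen receptors and respond to signals from damaged epithelium. IL-33 binds the receptor ST2, encoded by Il1rl1, which signals through MyD88 to the transcription factors NF-kappaB and AP-1 and leads to release of type 2 cytokines. A lymphocyte that passes from rest to secretion is known to enlarge its nucleoli, its endoplasmic reticulum and its supply of glycolytic enzymes, and many activated lymphocytes also divide.

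Total counts per library ran from 10470125 to 32849428, and the library with the fewest was replicate 3 of the IL-33 group. That library stood apart in content as well. Its genes at more than 4 times the level of each other library took 14.02% of its counts, against 0.582% to 1.04% of the counts of the others. Rn7sk, the 7SK small nuclear RNA, which carries no poly(A) tail, was at 392, 309.7, 452 and 301 counts per 1000000 (CPM, normalized by the TMM method) in unstimulated replicates 1 to 4 and at 167, 225, 15447 and 245 CPM in IL-33 replicates 1 to 4. Snap25, a synaptic protein of neurons, was at 14.6, 10.4, 14.4 and 10.1 CPM and 5.42, 7.32, 548 and 9.202 CPM in the same order. Neither passed the threshold with all 8 libraries, and without replicate 3 both were lower after IL-33, with adjusted p of 0.0027 for Rn7sk and 0.0103 for Snap25 by edgeR. The listed neuron and glia markers summed to 141, 136, 155 and 130.5 TPM in the unstimulated and 123, 125, 2385 and 161 TPM in the IL-33 libraries, so replicate 3 alone was high. Fold changes and counts of calls are therefore given with all 8 libraries and again without replicate 3 of the IL-33 group, called replicate 3 from here on. Values by library are in the order of replicates 1 to 4. A pair of numbers in parentheses after a gene gives its log2 fold change, IL-33 over unstimulated, with all 8 libraries and then without replicate 3, and a pair of medians is in the same order.

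**Figure D1:**
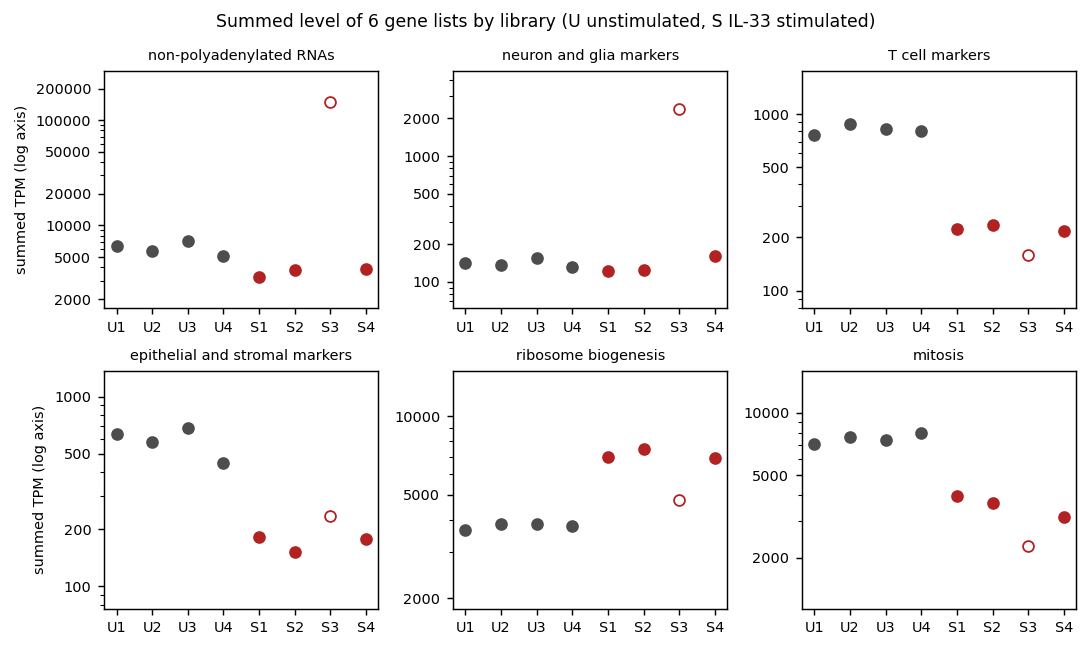
Summed deposited TPM (vertical, log axis) of 6 gene lists in each of the 8 libraries, with unstimulated libraries in grey, IL-33 libraries in red and IL-33 replicate 3 as an open circle. Replicate 3 lies at 2385 TPM for neuron and glia markers where the other libraries lie between 123 and 161, while it stays on the side of its group for T cell, ribosome biogenesis and mitosis genes.

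The cells carried the transcripts that define ILC2s in both groups. Of 20 ILC2 markers tested, 5 rose and 12 fell with all 8 libraries, where 16.2% of all genes tested were higher and 16.1% lower, and 5 rose and 12 fell without replicate 3, where 27.5% and 29.7% were. Gata3, the lineage-defining factor, was at 1029.7, 997, 996 and 1043 CPM in the unstimulated libraries and 659.97, 683, 492 and 692 CPM in the IL-33 libraries (log2 fold change -0.69, standard error 0.12, adjusted p = 0.00273, and -0.58 without replicate 3). Il1rl1, the receptor for IL-33 itself, was at 2436, 2382, 2375 and 2569.6 CPM and 1474, 1284, 1096 and 1481 CPM (log2 fold change -0.87, standard error 0.12, adjusted p = 0.000894, and -0.79 without replicate 3). Both genes were lower in each IL-33 library than in any unstimulated one. In bulk RNA, fewer cells of a type and less RNA per cell cannot be told apart. Thy1, which encodes the CD90 used in the sort, was at 758, 788, 782 and 653 CPM without and 124, 145, 109 and 142 CPM with IL-33 (log2 fold change -2.52, standard error 0.12, adjusted p = 9.14e-06, and -2.44 without replicate 3), and Il17rb, a subunit of the IL-25 receptor, at 21.6, 28.4, 28.2 and 35.9 and 4.63, 2.82, 1.87 and 4.11 CPM (log2 fold change -3.07, standard error 0.31, adjusted p = 0.00023, and -2.89 without replicate 3). The IL-33 libraries lay below the unstimulated ones for both. Areg, the tissue-repair growth factor amphiregulin, moved the other way, from 64.97, 37.4, 36.97 and 64.6 to 612, 560.4, 452 and 473 CPM (log2 fold change 3.36, standard error 0.24, adjusted p = 5.25e-05, and 3.43 without replicate 3).

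With all 8 libraries, 2508 genes were higher and 2484 lower after IL-33 at an adjusted p below 0.05 by edgeR's quasi-likelihood test, which is 16.2% and 16.1% of the genes tested and 32.3% in all. Without replicate 3 the counts were 4328 and 4666 of 15733 tested, 27.5% and 29.7% or 57.2% in all, and all 2508 and 2484 genes of the first fit were among them with the same direction. By the design text each library came from its own mouse, and these p-values measure the spread between the libraries. Legends of the study describe sorting samples pooled from more than 1 animal without saying whether this holds for the RNA-seq. The 4 IL-33 libraries lay wholly above the unstimulated ones for 2623 genes, 17% of those tested, and wholly below them for 3236 genes, 20.9%. In size, 819 of the higher genes changed by at least 1 log2 unit, 276 by at least 2 and 69 by at least 4, and the corresponding counts of lower genes were 925, 197 and 14. The median log2 fold change over all genes tested was 0.06 with all 8 libraries and -0.05 without replicate 3, and it moved to -0.10 with library size alone and to -0.25 with limma on log2(TPM + 1). Of the calls, 50.2% were higher, against 32.8% with library size alone and 18.1% with limma on log2(TPM + 1), called the TPM scale from here on. Genes are said to have risen, fallen or passed by edgeR unless another tool is named. Genes named for the largest changes, in all or within a list, had to have groups without overlap. For those genes a statement that the groups are separate follows from the choice. Of the genes described below as risen, Bst2, Ccnd2, Ctps, Etfdh, G6pdx, Hadhb, Idh3a, Ifit1, Itgb8, Mdh2, Per1, Rps26, Shmt2 and Slc6a6 did not pass on the TPM scale. Of the 4328 genes called higher without replicate 3, 68.6% were also above the unstimulated mean in replicate 3, and of the 4666 called lower, 73.5% were below it there.

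The largest rises included 5 cytokines and chemokines among 10 genes. Il9, a cytokine of type 2 lymphocytes that acts on mast cells, was at 0.0694, 0, 0 and 0 CPM in the unstimulated libraries and 3435, 3953, 3501 and 5313 CPM after IL-33, at least 31773-fold higher when each unstimulated library is set at the highest CPM that 3 counts give, and at least 33210-fold without replicate 3. Csn1s1, a milk casein, went from 0, 0, 0 and 0.126 CPM to 27.8, 35.7, 20.9 and 35.96 CPM (log2 fold change 9.64, standard error 0.87, adjusted p = 0.000139, and 9.78 without replicate 3). Il24, a cytokine of the IL-20 family, went from 0.208, 0, 0 and 0.063 to 44.5, 30.8, 27.6 and 46.6 CPM (log2 fold change 9.02, standard error 0.81, adjusted p = 0.000142, and 9.15 without replicate 3). In the unstimulated libraries Csn1s1 had at most 4 counts and Il24 at most 6, so the size of their fitted fold changes is uncertain. Across the alternatives it ran from 3.78 to 12.67 log2 units for Csn1s1 and from 5.998 to 10.504 for Il24, and both passed the threshold under all of them. Peg10, an imprinted gene derived from a retrotransposon, rose from 3.68, 2.83, 3.102 and 4.41 CPM to 604, 519, 399 and 759.9 CPM (log2 fold change 7.34, standard error 0.27, adjusted p = 4.18e-06, and 7.48 without replicate 3). Hamp, which encodes the iron hormone hepcidin, rose from 0.139, 0, 0.297 and 0.0315 to 10.02, 12.8, 8.27 and 11.1 CPM (log2 fold change 6.53, standard error 0.92, adjusted p = 0.00117, and 6.73 without replicate 3), with at most 7 counts in an unstimulated library and fitted values from 5.34 to 7.48 across the alternatives. The 2 groups did not overlap for either gene.

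Il13 and Il5, the type 2 cytokines that drive mucus and eosinophils, started from higher levels. Il13 was at 157, 93.7, 90.8 and 230.4 CPM without and 15204, 15610.4, 9279 and 18699 CPM with IL-33 (log2 fold change 6.68, standard error 0.45, adjusted p = 3.8e-05, and 6.85 without replicate 3). Il5 was at 609, 454, 424 and 689.6 CPM and 16289, 16819, 14219 and 21258 CPM (log2 fold change 4.98, standard error 0.25, adjusted p = 1.12e-05, and 5.06 without replicate 3), and Csf2, which encodes GM-CSF, at 32.4, 32.7, 33.5 and 37.4 CPM and 1835, 2021, 1582 and 2575 CPM (log2 fold change 5.88, standard error 0.18, adjusted p = 1.97e-06, and 5.98 without replicate 3). Each IL-33 library was above each unstimulated one, with replicate 3 the lowest of its group for all 3 genes. Together Il13, Il5, Il9 and Csf2 took 0.187%, 0.145%, 0.138% and 0.244% of the deposited TPM in the unstimulated libraries and 9.25%, 9.59%, 6.66% and 11.3% in the IL-33 libraries. TPM is scaled to the same total in every library, so a share of this size lowers the TPM of other genes on that scale.

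Large rises were also seen in a regulator, a receptor and a chemokine. Zbtb32, a zinc-finger repressor, went from 1.25, 1.202, 0.765 and 1.01 to 62.4, 53.6, 29.4 and 36.5 CPM (log2 fold change 5.42, standard error 0.32, adjusted p = 2.04e-05, and 5.56 without replicate 3). Tnfrsf8, the receptor CD30, went from 3.58, 0.716, 1.49 and 2.46 to 96.3, 93.2, 41.3 and 85.9 CPM (log2 fold change 5.27, standard error 0.54, adjusted p = 0.000248, and 5.49 without replicate 3). Cxcl2, a chemokine for neutrophils, went from 1.77, 2.32, 3.102 and 3.97 to 248, 251, 245 and 375 CPM (log2 fold change 6.65, standard error 0.31, adjusted p = 8.86e-06, and 6.71 without replicate 3). In all 3 the lowest IL-33 value was more than 10 times the highest unstimulated value.

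The 10 largest falls held receptors, enzymes and an adhesion molecule. Cpa3, the carboxypeptidase best known from mast cells, was at 9.76, 12.8, 12.5 and 6.68 CPM in the unstimulated libraries and 0.0329, 0, 0 and 0.0708 CPM after IL-33, at least 35.3-fold lower when the IL-33 libraries are set at the highest CPM that 3 counts give, and at least 98.3-fold without replicate 3, the shallowest library. Other defining mast cell and basophil genes, Mcpt4, Mcpt8, Fcer1a, Ms4a2, Tpsb2 and Cma1, had too few counts to be tested in these libraries. Il9 was the only gene to go from at most 3 counts in each unstimulated library to at least 5 CPM in each IL-33 library, and Cpa3 the only one to do the opposite.

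Ccr9, the receptor for the gut chemokine CCL25, fell from 52.8, 51.7, 42.2 and 40.2 to 0.756, 0.81, 0.0985 and 0.495 CPM (log2 fold change -6.31, standard error 0.44, adjusted p = 4.41e-05, and -6.07 without replicate 3). Epcam, an adhesion molecule named for epithelia, fell from 69.5, 60.6, 56.05 and 52.4 to 3.55, 2.36, 2.27 and 2.27 CPM (log2 fold change -4.50, standard error 0.20, adjusted p = 6.59e-06, and -4.45 without replicate 3). Alox5, the enzyme that begins leukotriene synthesis, fell from 415, 458, 409 and 383 to 25.4, 32.6, 17.2 and 33.9 CPM (log2 fold change -3.92, standard error 0.22, adjusted p = 1.56e-05, and -3.77 without replicate 3) and was the most abundant gene among the 10 largest falls. The groups were far apart for each of these genes. The others were the keratin Krt80 (-4.95 and -4.60), the complement C5a receptor C5ar2 (-4.61 and -4.29), Fam19a3 (-4.46 and -4.39), Cd200r3 (-4.02 and -4.30) and Pnma1 (-3.99 and -4.01), and 1500009L16Rik was the last of the 10.

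**Figure D2:**
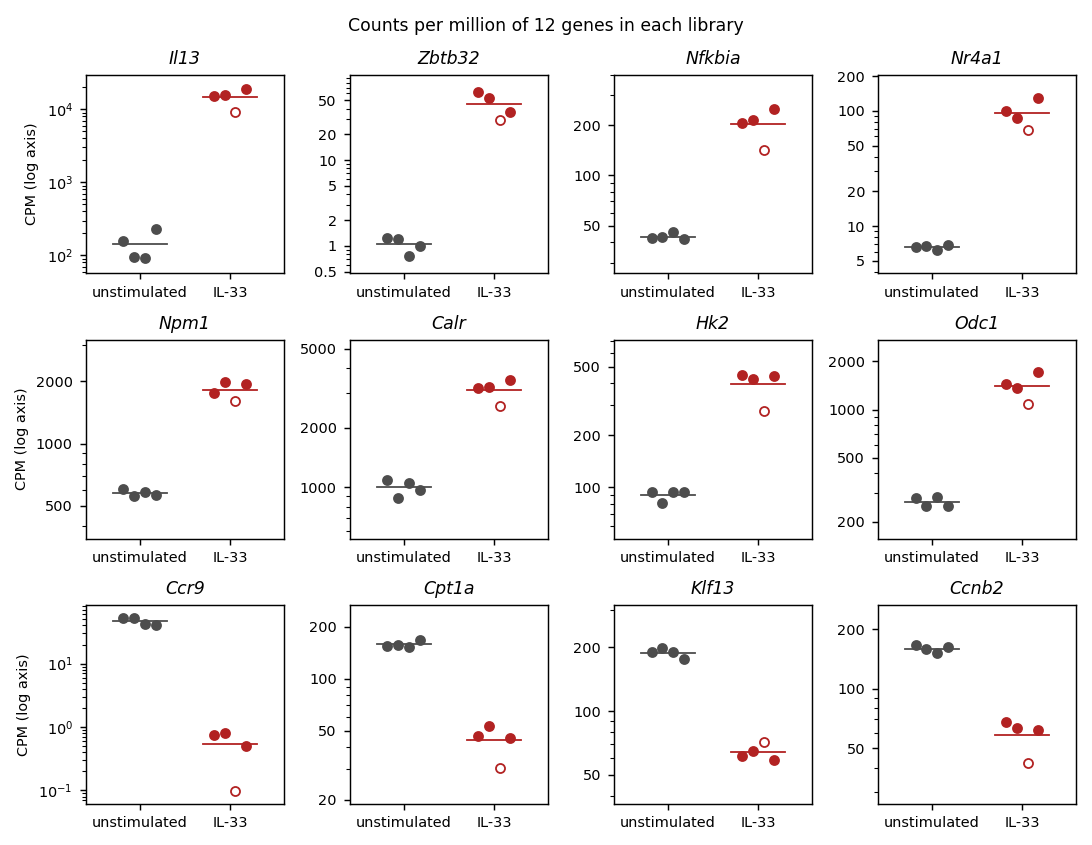
CPM (vertical, log axis) of 12 genes in each unstimulated library (grey) and IL-33 library (red), with IL-33 replicate 3 as an open circle and a line at the mean of each group. All 12 genes were picked under a rule that requires groups without overlap, so separation in every panel follows from the choice. Replicate 3 lies nearer to the unstimulated libraries than the other IL-33 libraries for Il13, Zbtb32, Nfkbia, Nr4a1, Npm1, Calr, Hk2, Odc1 and Klf13.

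Transcription factors were examined by family, beginning with those downstream of ST2. Of the genes for NF-kappaB subunits, inhibitors and feedback regulators, 12 rose and 0 fell of 16 tested with all 8 libraries and 14 rose and 2 fell without replicate 3, with median log2 fold changes of 1.100 and 1.23. Over all genes, 16.2% were higher and 16.1% lower in the first fit and 27.5% and 29.7% in the second. These shares stand behind every list below. Counts on the TPM scale stand beside 1032 higher and 4655 lower of all 15171 genes tested there. Those with library size alone stand beside 1805 higher and 3691 lower of 15466. With limma on log2(TPM + 1) the NF-kappaB list had 8 higher and 2 lower. Nfkbia, the inhibitor IkB-alpha, rose from 42.4, 42.7, 46.1 and 41.7 to 205, 215, 142 and 250.04 CPM (log2 fold change 2.23, standard error 0.16, adjusted p = 5.25e-05, and 2.37 without replicate 3). Tnfaip3, the deubiquitinase A20 that ends NF-kappaB signalling, rose from 32.4, 26.6, 32.2 and 28.8 to 302, 309, 166 and 251 CPM (log2 fold change 3.10, standard error 0.20, adjusted p = 3.37e-05, and 3.26 without replicate 3). No IL-33 library overlapped the unstimulated range for either gene. The activating subunit Rel (1.88 and 1.98) and Zc3h12a (2.47 and 2.64), a nuclease that degrades cytokine mRNA, also rose. The p105 subunit Nfkb1 (-0.27 and -0.14) had an adjusted p of 0.172 in the first fit and 0.03 in the second.

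Promoter windows of 300 bases, from 250 before to 50 after the annotated start, were taken from RefSeq on GRCm38.p6 to show sequence that members of a list share. Of the 16 NF-kappaB genes, 13 had a window, 18 windows in all, and 33.3% of these held the kappaB motif, GGG followed by any 2 bases and TTTCC, on either strand, against 1.63% of all 32851 windows. The windows with the motif belonged to Nfkb2, Nfkbia, Rel and Tnfaip3. Among the 10 largest rises, 8 genes had a window and 22.2% of their 9 windows held it. The window of Cxcl2 lies at chr5:90903649-90903948 on the plus strand and that of Nfkbia at chr12:55492598-55492897 on the minus strand, each shown 5′ to 3′ in the direction of the gene with kappaB matches in capitals, since both genes rose and hold the motif close to the start.
Cxcl2: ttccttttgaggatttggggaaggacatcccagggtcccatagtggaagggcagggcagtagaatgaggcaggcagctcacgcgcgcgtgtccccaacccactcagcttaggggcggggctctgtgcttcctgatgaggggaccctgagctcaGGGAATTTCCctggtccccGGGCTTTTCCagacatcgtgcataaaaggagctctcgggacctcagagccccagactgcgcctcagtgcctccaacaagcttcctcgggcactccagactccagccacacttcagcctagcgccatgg
Nfkbia: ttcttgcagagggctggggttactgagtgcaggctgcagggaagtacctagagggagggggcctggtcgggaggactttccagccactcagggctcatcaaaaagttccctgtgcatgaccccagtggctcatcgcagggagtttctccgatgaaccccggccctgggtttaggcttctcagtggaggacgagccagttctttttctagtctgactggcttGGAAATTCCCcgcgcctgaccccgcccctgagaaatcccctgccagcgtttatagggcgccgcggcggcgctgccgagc
A match is a run of letters and not a measured binding site.

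Of the AP-1 and ATF factors, 8 rose and 2 fell of 17 tested, and 10 rose and 3 fell without replicate 3, with 8 higher and 3 lower on the TPM scale. Atf3, a stress-induced member, rose from 2.81, 1.63, 2.04 and 2.52 to 53.7, 44.9, 28.9 and 24.5 CPM (log2 fold change 4.08, standard error 0.32, adjusted p = 7.65e-05, and 4.19 without replicate 3). Jun, a core AP-1 subunit, rose from 14.1, 14.5, 15.1 and 10.6 to 22.4, 28.2, 50.5 and 26.4 CPM (log2 fold change 1.23, standard error 0.26, adjusted p = 0.0089, and 0.92 without replicate 3). Both rose in each IL-33 library, with replicate 3 the highest for Jun. The cAMP-responsive factor Crem (2.50 and 2.54) and Junb (1.95 and 2.12) rose, and Bach1 (-1.64 and -1.46), a repressor of haem and antioxidant genes, fell. Fos was at 21.1, 16.9, 18.1 and 16.5 CPM without and 6.83, 5.99, 18.3 and 7.22 CPM with IL-33 (log2 fold change -0.93, standard error 0.36, adjusted p = 0.0868, against -1.44 and adjusted p = 5.59e-06 without replicate 3). Replicates 1, 2 and 4 of the IL-33 group lay below the unstimulated range and replicate 3 within it, and Fos passed the threshold without that library. With all 8 libraries it also passed with DESeq2, voom with sample weights and both limma fits on TPM.

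Of the EGR, NR4A, NFAT and MYC factors, 9 rose and 4 fell of 18 tested and 9 rose and 5 fell without replicate 3, with 6 higher and 5 lower on the TPM scale. Nr4a1, an orphan nuclear receptor induced by activating signals, rose from 6.63, 6.73, 6.204 and 6.77 to 99.2, 87.4, 68.4 and 129.5 CPM (log2 fold change 3.87, standard error 0.20, adjusted p = 1.24e-05, and 4.00 without replicate 3). Myc, the driver of growth programs, rose from 79.2, 73.3, 77.3 and 77.3 to 249, 276, 179 and 257 CPM (log2 fold change 1.65, standard error 0.13, adjusted p = 7.46e-05, and 1.76 without replicate 3), while its relative Mycn fell from 22.7, 24.1, 25.2 and 20.2 to 2.14, 2.46, 3.15 and 2.48 CPM (log2 fold change -3.18, standard error 0.17, adjusted p = 1.38e-05, and -3.29 without replicate 3). The groups were separate for all 3 genes, so Myc and Mycn moved in opposite directions in every library. Mxd1 (2.01 and 2.097), which competes with MYC for its partner MAX, rose. Egr1, an immediate early gene, was at 12.8, 9.22, 9.603 and 9.67 CPM and 29.3, 22.8, 98.1 and 24.1 CPM (log2 fold change 2.07, standard error 0.50, adjusted p = 0.0144, and 1.30 without replicate 3). Replicate 3 lay far above the other IL-33 libraries, and without unstimulated replicate 2 the adjusted p was 0.0513.

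Of the IRF and STAT factors, 3 rose and 0 fell of 15 tested, and 6 rose and 1 fell without replicate 3, with medians of 0.01 and 0.12. Irf4, a factor of effector lymphocytes, rose from 49.6, 33.9, 30.7 and 53.9 to 252, 274, 135 and 241 CPM (log2 fold change 2.42, standard error 0.27, adjusted p = 0.000401, and 2.60 without replicate 3). All IL-33 libraries exceeded the unstimulated ones. Irf5 (0.91 and 1.04), a factor of inflammatory genes, rose. With library size alone, the list had 2 higher and 2 lower.

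Among the factors that specify ILC2s, 2 rose and 7 fell of 20 tested, and 5 rose and 10 fell without replicate 3. On the TPM scale 1 was higher and 11 lower, and without IL-33 replicate 2, 1 rose. Rora, which ILC2s need to develop, was at 345, 377, 331 and 365 CPM without and 355, 341, 284 and 336 CPM with IL-33 (log2 fold change -0.11, adjusted p = 0.353, and -0.04 without replicate 3), with overlapping groups. Satb1, a chromatin organizer, rose from 51.04, 43.8, 47.5 and 50.04 to 214, 210.2, 193 and 196 CPM (log2 fold change 2.08, standard error 0.07, adjusted p = 3.03e-06, and 2.103 without replicate 3). Tcf7, the factor TCF-1 of early lymphoid cells, fell from 13.2, 18.8, 16.4 and 13.9 to 4.93, 6.12, 6.501 and 7.397 CPM (log2 fold change -1.32, standard error 0.19, adjusted p = 0.00119, and -1.34 without replicate 3). The groups were separate for Satb1 and Tcf7 and not for Rora. Runx1 (-0.77 and -0.66) and Ikzf2 (-0.71 and -0.67) also fell. Of 14 factors of other lymphoid lineages, 10 had enough counts, of which 1 rose and 3 fell, 1 rose and 4 fell without replicate 3, and 0 higher and 3 lower on the TPM scale. The count of 1 higher became 0 without IL-33 replicate 1, 2 or 4 or unstimulated replicate 3. Ikzf3 (-1.11 and -1.03), an Ikaros family factor, and the T cell factor Zbtb7b (-0.54 and -0.43) fell. The type 1 factor Tbx21 (0.67 and 0.29) had an adjusted p of 0.34 and was at no more than 4.43 CPM in any library.

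Quiescence genes fell more often than they rose. Of 22 KLF, FOXO and other such genes tested, 1 rose and 10 fell, and 1 rose and 13 fell without replicate 3, with medians of -0.70 and -0.76, and 1 higher and 12 lower on the TPM scale. Klf13 fell from 189, 198, 189 and 176 to 61.5, 64.99, 71.2 and 58.5 CPM (log2 fold change -1.55, standard error 0.08, adjusted p = 1.11e-05, and -1.61 without replicate 3). Txnip, an inhibitor of glucose uptake, fell from 428, 438, 463 and 436 to 180.02, 188, 106 and 167 CPM (log2 fold change -1.46, standard error 0.17, adjusted p = 0.000445, and -1.31 without replicate 3). Foxo1, which sustains resting lymphocytes, fell from 84.5, 75.9, 67.3 and 78.9 to 35.03, 36.5, 54.96 and 39.3 CPM (log2 fold change -0.89, standard error 0.15, adjusted p = 0.00303, and -1.05 without replicate 3). Each IL-33 library was below each unstimulated one for the 3 genes. Klf3 (-1.65 and -1.71), Klf2 (-1.34 and -1.18) and the repressor Bach2 (-1.36 and -1.38) fell too. Klf2 missed the threshold by edgeR with the replicate block, at an adjusted p of 0.0698. The member that rose was Foxp1 (0.86 and 0.63), a forkhead factor of resting lymphocytes.

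Of the circadian clock genes, 3 rose and 3 fell of 16 tested, and 5 rose and 8 fell without replicate 3, with 2 higher and 6 lower on the TPM scale. Nr1d2, the repressor REV-ERB-beta, fell from 69.5, 88.4, 81.6 and 83.3 to 27.7, 29.9, 39.6 and 24.99 CPM (log2 fold change -1.40, standard error 0.15, adjusted p = 0.000315, and -1.55 without replicate 3). Per3 (-1.21 and -1.29) fell, whereas Per1 (0.69 and 0.54) and Bhlhe40 (0.96 and 1.05), a repressor also made by activated lymphocytes, rose. Among SOCS, DUSP and related feedback genes, 5 rose and 4 fell of 21 tested, and 7 rose and 5 fell without replicate 3, but 2 higher and 8 lower with limma on log2(TPM + 1). The higher members numbered 2 or 3 when 1 unstimulated library was dropped. Spry1 (-1.56 and -1.47), Socs5 (-1.34 and -1.54) and Socs2 (-0.83 and -0.77) fell and the phosphatase Dusp16 (1.08 and 1.21) rose.

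Of the chromatin modifiers, 5 rose and 6 fell of 31 tested, and 8 rose and 13 fell without replicate 3, with 3 higher and 14 lower on the TPM scale. Without IL-33 replicate 2 or unstimulated replicate 3, 3 rose. The histone demethylases Kdm6b (1.91 and 1.95) and Kdm5b (1.37 and 1.36) and the DNA methyltransferase Dnmt3a (0.83 and 0.85) rose, while Ezh2 (-0.71 and -0.67) of the Polycomb complex and the deacetylase Hdac7 (-1.19 and -1.06) fell. Of the mRNA decay factors, 4 rose and 4 fell of 17 tested, and 4 rose and 7 fell without replicate 3, with 2 higher and 9 lower on the TPM scale. Zc3h12c (1.47 and 1.54), a relative of the nuclease encoded by Zc3h12a, rose, and the RNA-binding proteins Arid5a (-1.65 and -1.54) and Zfp36l1 (-1.16 and -1.11) fell. Zfp36 (-0.21 and -0.22), tristetraprolin, had an adjusted p of 0.072 and of 0.016 without replicate 3.

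Ribosome biogenesis genes rose in nearly all members. Of 40 ribosome biogenesis genes tested, 38 rose and 0 fell with all 8 libraries, and 40 rose without replicate 3, with medians of 0.87 and 0.998, beside 16.2% and 27.5% of all genes. Npm1, the nucleolar chaperone nucleophosmin, rose from 606, 556, 583 and 562 to 1763, 1986, 1602 and 1932 CPM (log2 fold change 1.66, standard error 0.09, adjusted p = 1.71e-05, and 1.72 without replicate 3). Ncl, nucleolin, rose from 1281, 1227, 1268 and 1182 to 2635, 2859.95, 2044 and 2740.3 CPM (log2 fold change 1.05, standard error 0.12, adjusted p = 0.000415, and 1.15 without replicate 3). Each IL-33 library was above each unstimulated one. The nucleolar proteins Nop16 (1.42 and 1.51), Rrp9 (1.36 and 1.54) and Mybbp1a (1.28 and 1.44) and the snoRNP core protein Nop56 (0.89 and 1.01) rose. The members that did not pass with all 8 libraries by edgeR were Polr1a (0.30 and 0.44) and Polr1e (0.12 and 0.23), subunits of RNA polymerase I, which passed with voom and sample weights. With limma on log2(TPM + 1), where the median of all genes lies at -0.25, 23 members rose and 0 fell.

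Translation factors and tRNA synthetases followed, with 29 of 36 higher and 0 lower, and 35 rose and 1 fell without replicate 3. With limma on log2(TPM + 1) there were 13 higher and 1 lower. Eif2s2, a subunit of the initiation factor eIF2, rose from 139, 125, 129.9 and 132 to 265, 279, 282 and 287 CPM (log2 fold change 1.08, standard error 0.06, adjusted p = 1.38e-05, and 1.08 without replicate 3), without overlap. Eef1e1 (1.798 and 1.85) of the synthetase complex, the isoleucyl-tRNA synthetase Iars (1.08 and 1.20) and the cap-binding protein Eif4e (0.75 and 0.77) rose too. Ribosomal protein genes changed less. Of the large subunit, 8 rose and 0 fell of 31 tested, with a median log2 fold change of 0.40, and 31 of 31 rose without replicate 3, while limma on log2(TPM + 1) called 2 higher and 0 lower. Leaving out unstimulated replicate 1 gave 15 higher, and leaving out IL-33 replicate 1, 2 or 4 or unstimulated replicate 3 gave 3 or 4. Of the small subunit, 2 rose and 0 fell of 30 tested, and 26 rose without replicate 3, with 0 higher and 0 lower and a median of -0.13 on the TPM scale against 0.23 by edgeR. Without unstimulated replicate 1, 7 of these rose, and without IL-33 replicate 1, 2 or 4 or unstimulated replicate 3, 1 rose. Rpl13a (1.15 and 1.27) and Rps26 (0.66 and 0.74) rose, whereas Rpl3 (0.40 and 0.55) and Rpl4 (0.41 and 0.56) passed without replicate 3 and had adjusted p of 0.101 and 0.114 with all 8 libraries. Ribosomal protein genes have many processed pseudogenes, so reads may be shared among copies. Of 1148 pseudogenes tested, 163 were higher and 25 lower, and 346 and 73 without replicate 3.

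Genes of the unfolded protein response and secretory pathway rose in most members. Of 35 tested, 27 rose and 0 fell, and 31 rose and 2 fell without replicate 3, with medians of 0.79 and 0.89, and 20 higher and 2 lower on the TPM scale. Hspa5, the endoplasmic reticulum chaperone BiP, rose from 939.97, 775, 934 and 873 to 2461, 2399, 2169 and 2457 CPM (log2 fold change 1.43, standard error 0.10, adjusted p = 4.12e-05, and 1.47 without replicate 3). Calr, calreticulin, rose from 1093, 883, 1056 and 975 to 3185, 3220.2, 2576 and 3469 CPM (log2 fold change 1.64, standard error 0.13, adjusted p = 6.82e-05, and 1.72 without replicate 3). The groups were well separated. Creld2 (1.87 and 2.00), Manf (1.68 and 1.78) and Hyou1 (1.46 and 1.57), each made in response to stress in that compartment, rose. Xbp1, a transcription factor of this response, was at 305, 272, 288 and 266 CPM and 241, 238, 204 and 268 CPM (log2 fold change -0.25, standard error 0.09, adjusted p = 0.0714, against -0.18 and adjusted p = 0.0384 without replicate 3). Its groups overlapped in 1 IL-33 library, and gene counts do not report its splicing.

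The endoplasmic reticulum stress element, CCAAT followed by any 9 bases and CCACG, was searched on both strands. It was in 23.3% of the 30 windows of these genes, where 29 of 35 genes had a window, and in 0.119% of all windows. The element includes the letters CCAAT, which were counted on their own in 80.00% and 37.4%. It was found for Calr, Canx, Creld2, Dnajc3, Hsp90b1, Hspa5 and Pdia6. The windows of Creld2, at chr15:88819396-88819695 on the plus strand, and Calr, at chr8:84846882-84847181 on the minus strand, are given because both rose by more than 1.5 log2 units and hold a whole element, which is in capitals.
Creld2: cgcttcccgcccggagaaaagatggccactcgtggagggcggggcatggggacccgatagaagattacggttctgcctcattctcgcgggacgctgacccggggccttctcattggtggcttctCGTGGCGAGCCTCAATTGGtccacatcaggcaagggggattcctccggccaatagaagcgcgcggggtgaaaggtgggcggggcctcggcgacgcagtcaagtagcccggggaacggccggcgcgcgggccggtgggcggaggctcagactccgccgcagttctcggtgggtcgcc
Calr: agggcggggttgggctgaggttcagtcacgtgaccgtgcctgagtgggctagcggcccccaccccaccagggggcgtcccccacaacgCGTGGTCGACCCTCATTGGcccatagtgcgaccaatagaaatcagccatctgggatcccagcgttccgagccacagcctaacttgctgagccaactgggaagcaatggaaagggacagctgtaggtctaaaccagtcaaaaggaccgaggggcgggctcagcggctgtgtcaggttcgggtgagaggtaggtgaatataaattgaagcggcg
In both the element reads as its reverse complement.

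Proteasome subunits rose by smaller amounts, with 24 of 37 higher and 0 lower, and 32 higher and 0 lower without replicate 3. With limma on log2(TPM + 1) there were 9 higher and 0 lower. The core subunit Psma2 (0.88 and 0.96) and the regulatory subunits Psmd12 (0.85 and 0.94) and Psmc6 (0.81 and 0.81) rose. Of chaperones of the cytosol and mitochondria, 16 rose and 2 fell of 21 tested, and 16 rose and 2 fell without replicate 3. On the TPM scale 13 were higher and 2 lower. Leaving out IL-33 replicate 1 or 2 or unstimulated replicate 1, 2 or 3 gave 1 lower. Hspd1, the mitochondrial chaperonin HSP60, rose from 241, 228, 241 and 219.5 to 803, 893, 588 and 850.5 CPM (log2 fold change 1.75, standard error 0.13, adjusted p = 6.42e-05, and 1.87 without replicate 3), without overlap. Hsph1 (1.46 and 1.47) and Hsp90aa1 (1.07 and 1.15) rose. The stress-inducible Hspa1a stayed at or below 1.34 CPM in every library. Lysosome and autophagy genes leaned the other way, with 2 higher and 13 lower of 29, and 6 rose and 16 fell without replicate 3. On the TPM scale 2 were higher and 15 lower, and without unstimulated replicate 1, 6 rose. Tfeb, a transcription factor of lysosomal genes, fell from 24.5, 24.96, 22.9 and 23.7 to 8.12, 8.88, 4.83 and 9.59 CPM (log2 fold change -1.61, standard error 0.21, adjusted p = 0.000797, and -1.44 without replicate 3). The autophagy gene Tecpr1 (-1.19 and -1.13), cathepsin E, Ctse (-1.19 and -1.24), and the lysosomal membrane protein Lamp1 (-0.47 and -0.43) fell.

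**Figure D3:**
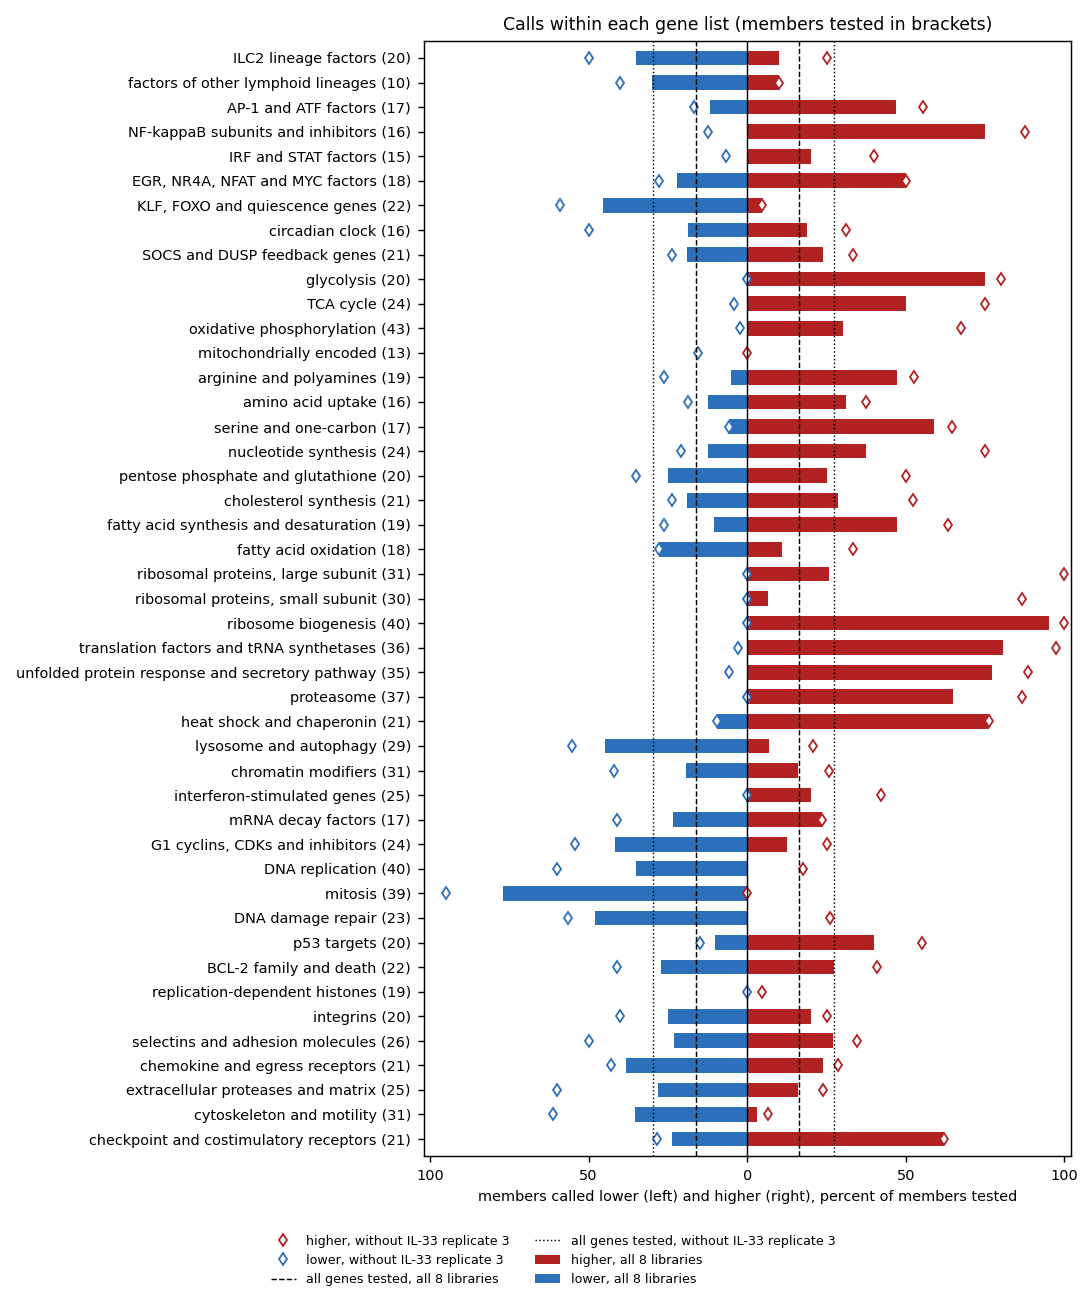
Share of tested members called lower (left, blue) and higher (right, red) in each gene list, in percent, as bars for all 8 libraries and diamonds without IL-33 replicate 3. Dashed and dotted lines mark the shares over all genes tested, and the bars of ribosome biogenesis (38 of 40 higher) and mitosis (30 of 39 lower) reach far beyond them.

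Glycolysis genes rose in most members. Of 20 genes tested, 15 rose and 0 fell, and 16 rose without replicate 3, with medians of 1.02 and 1.04. Hk2, a hexokinase, rose from 94.1, 80.8, 94.3 and 93.4 to 446, 425, 277 and 442 CPM (log2 fold change 2.13, standard error 0.16, adjusted p = 6.13e-05, and 2.27 without replicate 3). Slc16a3, the lactate exporter MCT4, rose from 144, 114, 117 and 134 to 558, 573, 279.6 and 622 CPM (log2 fold change 2.00, standard error 0.24, adjusted p = 0.000536, and 2.20 without replicate 3). No libraries of the groups overlapped, and replicate 3 had the lowest IL-33 value for both. Pgam1 (1.56 and 1.67), lactate dehydrogenase A, Ldha (0.91 and 1.05), and the monocarboxylate transporter Slc16a1 (1.51 and 1.57) rose. Under every alternative tried, 13 to 17 members rose and 0 fell.

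Calls in mitochondrial genes differed between the tests. Of the TCA cycle genes, 12 rose and 0 fell of 24 tested, and 18 rose and 1 fell without replicate 3. Their medians were 0.30 and 0.28. There were 2 higher and 4 lower with limma on log2(TPM + 1) and 8 higher and 2 lower with library size alone. Of nuclear oxidative phosphorylation genes, 13 rose and 0 fell of 43 tested, and 29 rose and 1 fell without replicate 3. Their medians were 0.20 and 0.26. There were 3 higher and 6 lower with limma on log2(TPM + 1) and 8 higher and 2 lower with library size alone. Without IL-33 replicate 2 or without unstimulated replicate 3, 8 rose. Over all genes tested, lower calls outnumbered higher ones both with limma on log2(TPM + 1) and with library size alone. The TCA cycle enzymes Pdhb (0.67 and 0.70), Idh3a (0.56 and 0.61) and Mdh2 (0.71 and 0.84), the cytochrome Cyc1 (0.68 and 0.74) and the ATP synthase subunit Atp5g1 (0.85 and 0.89) rose. Citrate synthase, Cs (0.22 and 0.34), Ndufa9 (0.13 and 0.19) of complex I and Cox5a (0.23 and 0.23) of complex IV did not pass with all 8 libraries by edgeR, and Cs and Ndufa9 passed with voom and sample weights. None of the 13 protein-coding genes of the mitochondrial genome passed in either direction with all 8 libraries by edgeR under the main settings. In that fit 1 had an unadjusted p below 0.05. With DESeq2 1 passed, with voom and sample weights 2 and with limma on log2(TPM + 1) 7. By edgeR, 4 of the 13 were lower with library size alone and 1 with a mean count of at least 50. Without unstimulated replicate 1, 1 was higher. Without replicate 3, 2 of them were lower. The complex I gene mt-Nd1 (0.09 and 0.14) and the complex IV gene mt-Co1 (-0.30 and -0.24) had adjusted p of 0.605 and 0.108 with all 8 libraries.

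Several polyamine enzymes rose. Odc1, ornithine decarboxylase, the first step, rose from 281, 250.5, 283 and 251 to 1447, 1372, 1079.96 and 1704 CPM (log2 fold change 2.39, standard error 0.14, adjusted p = 2.36e-05, and 2.50 without replicate 3). Spermidine synthase, Srm (1.87 and 2.03), and the spermine oxidase Smox (2.57 and 2.69) rose. The groups did not overlap for Odc1. Of the list, 9 rose and 1 fell of 19 tested, and 10 rose and 5 fell without replicate 3. With limma on log2(TPM + 1) 6 were higher and 5 lower, and without unstimulated replicate 4, 2 fell.

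Of serine and one-carbon genes, 10 rose and 1 fell of 17 tested, and 11 rose and 1 fell without replicate 3. On the TPM scale 5 were higher and 2 lower, and without IL-33 replicate 1, 2 fell. Asns, asparagine synthetase, rose from 11.6, 9.39, 12.6 and 10.1 to 46.1, 49.5, 42.1 and 57.8 CPM (log2 fold change 2.16, standard error 0.14, adjusted p = 3.37e-05, and 2.23 without replicate 3). The mitochondrial folate enzymes Shmt2 (1.06 and 1.25) and Mthfd2 (1.096 and 1.23) rose, while Gldc (-1.63 and -1.46) of glycine cleavage fell. Of nucleotide synthesis genes, 9 rose and 3 fell of 24 tested and 18 rose and 5 fell without replicate 3, but 2 higher and 6 lower with limma on log2(TPM + 1). Prps1 (1.09 and 1.13), which supplies ribose phosphate, and the CTP synthase Ctps (0.66 and 0.79) rose, while its relative Ctps2 (-0.97 and -1.01) and the thymidine kinase Tk1 (-0.71 and -0.62) fell. Cad (0.64 and 0.84), which begins pyrimidine synthesis, had adjusted p of 0.061 and 4.58e-07 without replicate 3. Among amino acid carriers, 5 rose and 2 fell of 16 tested and 6 rose and 3 fell without replicate 3, but 2 higher and 4 lower with library size alone and 1 higher and 6 lower on the TPM scale. Leaving out IL-33 replicate 1, 2 or 4 or unstimulated replicate 2, 3 or 4 gave 2 or 3 higher and 1 lower. The large neutral amino acid carrier Slc7a5 (1.04 and 1.16) and the taurine carrier Slc6a6 (0.74 and 0.84) rose, and the aromatic amino acid carrier Slc16a10 (-1.52 and -1.33) fell. Pentose phosphate and glutathione genes were split, at 5 higher and 5 lower of 20, at 10 higher and 7 lower without replicate 3, and at 1 higher and 9 lower with limma on log2(TPM + 1). Leaving out IL-33 replicate 1, 2 or 4 or unstimulated replicate 3 gave 3 higher, and IL-33 replicate 2 or unstimulated replicate 3 also 3 lower. G6pdx (0.57 and 0.66), which opens the pentose phosphate pathway, and the superoxide dismutase Sod2 (0.74 and 0.69) rose, and the glutathione synthesis subunit Gclm (-1.001 and -0.92) fell.

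Lipid genes changed in both directions. Dgat1 and Dgat2, the enzymes of the last step of triglyceride synthesis, rose from 60.6, 43.9, 47.6 and 77.7 to 399, 312, 221 and 413 CPM (log2 fold change 2.55, standard error 0.26, adjusted p = 0.00023, and 2.71 without replicate 3) and from 3.68, 3.35, 3.87 and 2.43 to 42.4, 41.99, 40.1 and 51.7 CPM (log2 fold change 3.72, standard error 0.18, adjusted p = 1.06e-05, and 3.78 without replicate 3). Cpt1a, which admits fatty acids to mitochondria for oxidation, fell from 154, 157, 153 and 167 to 46.6, 53.1, 30.2 and 45.7 CPM (log2 fold change -1.84, standard error 0.16, adjusted p = 0.000112, and -1.70 without replicate 3). All IL-33 libraries lay outside the unstimulated range for these genes. The oxidation enzymes Acaa2 (-0.97 and -0.91), Hadh (-0.82 and -0.67) and Decr1 (-0.62 and -0.59) also fell. Hadhb (0.50 and 0.50), a subunit of the mitochondrial trifunctional protein, and Etfdh (0.22 and 0.25), which passes electrons from oxidation to the respiratory chain, rose and are named after their values were seen. Etfdh lost its call when any of 4 libraries was left out, with a highest adjusted p of 0.073, and was at -0.10 with limma on log2(TPM + 1). Of that list, 2 rose and 5 fell of 18 tested, and 6 rose and 5 fell without replicate 3, with 0 higher and 6 lower on the TPM scale. Of fatty acid synthesis and desaturation genes, 9 rose and 2 fell of 19 tested and 12 rose and 5 fell without replicate 3, but 4 higher and 5 lower with limma on log2(TPM + 1). Fatty acid synthase, Fasn (0.48 and 0.66), did not pass with all 8 libraries by edgeR and passed without replicate 3 and with voom and sample weights. Of cholesterol genes, 6 rose and 4 fell of 21 tested and 11 rose and 5 fell without replicate 3, but 2 higher and 8 lower with limma on log2(TPM + 1). Leaving out IL-33 replicate 1 or 2 or unstimulated replicate 1, 2 or 3 gave 2 lower. The synthesis enzyme Idi1 (1.11 and 1.19) and Insig1 (0.78 and 0.87), which restrains the pathway, rose.

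Most mitosis genes fell. Of 39 mitosis genes tested, 0 rose and 30 fell with all 8 libraries, and 0 rose and 37 fell without replicate 3, with medians of -0.81 and -0.71, beside 16.1% and 29.7% of all genes called lower. Mki67, the proliferation marker Ki-67, fell from 899.8, 1219.8, 1025 and 1391 to 788, 647, 363 and 536 CPM (log2 fold change -0.96, standard error 0.24, adjusted p = 0.0181, and -0.79 without replicate 3). Top2a, the topoisomerase of dividing cells, fell from 1432, 1486, 1465 and 1487 to 984, 942, 660.1 and 769 CPM (log2 fold change -0.81, standard error 0.13, adjusted p = 0.00239, and -0.71 without replicate 3). Stmn1, which destabilizes microtubules, fell from 524, 463, 518 and 442 to 162, 160.3, 149 and 149 CPM (log2 fold change -1.65, standard error 0.08, adjusted p = 9.48e-06, and -1.63 without replicate 3). The groups did not overlap for these genes, and without IL-33 replicate 4 the adjusted p of Mki67 was 0.0548. Foxm1 (-1.33 and -1.14), the transcription factor of this program, and the spindle protein Prc1 (-1.31 and -1.18) fell. The 9 members that did not pass with all 8 libraries by edgeR had log2 fold changes below 0 in both fits as well.

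Ccnb2, a mitotic cyclin, fell from 165, 158, 151 and 163 to 67.7, 63.3, 42.1 and 61.8 CPM (log2 fold change -1.44, standard error 0.14, adjusted p = 0.000203, and -1.31 without replicate 3). Promoters of such genes often hold CCAAT boxes and a cell cycle homology region (CHR), searched here as TTTGAA or TTCGAA on both strands. Of 39 mitosis genes, 31 had a window, and 81.2% of their 32 windows held CCAAT and 81.2% held a CHR, against 37.4% and 19.2% of all windows. The windows of Ccnb2, at chr9:70421505-70421804 on the minus strand, and Prc1, at chr7:80294201-80294500 on the plus strand, are given as examples with both motifs in capitals, which do not overlap in either. Prc1 had 2 windows, and the one shown was picked for the motifs it holds, with ties broken by position.
Ccnb2: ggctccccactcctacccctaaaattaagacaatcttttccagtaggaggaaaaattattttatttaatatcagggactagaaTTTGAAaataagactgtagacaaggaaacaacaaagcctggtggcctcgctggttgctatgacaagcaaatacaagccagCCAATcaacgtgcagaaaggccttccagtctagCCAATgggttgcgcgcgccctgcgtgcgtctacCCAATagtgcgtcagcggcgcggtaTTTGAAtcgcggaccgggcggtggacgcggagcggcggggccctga
Prc1: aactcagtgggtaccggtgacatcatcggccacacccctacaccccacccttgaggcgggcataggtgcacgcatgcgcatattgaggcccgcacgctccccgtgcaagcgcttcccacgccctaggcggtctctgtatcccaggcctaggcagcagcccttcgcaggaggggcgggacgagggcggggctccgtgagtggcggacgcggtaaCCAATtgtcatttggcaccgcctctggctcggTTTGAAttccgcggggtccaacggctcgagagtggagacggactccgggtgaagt
In both a CCAAT box lies within 40 bases before the start and a CHR at or near it.

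Of DNA replication genes, 0 rose and 14 fell of 40 tested, and 7 rose and 24 fell without replicate 3, with medians of -0.35 and -0.22, and 0 higher and 29 lower on the TPM scale. The helicase subunit Mcm2 (-0.53 and -0.39), the clamp Pcna (-0.48 and -0.39), the ligase Lig1 (-0.85 and -0.73), the polymerase subunit Pold1 (-0.86 and -0.67) and the licensing factor Cdt1 (-0.76 and -0.62) fell. Mcm2 lost its call without IL-33 replicate 4 or unstimulated replicate 3, with adjusted p of 0.0579 and 0.0581. Of DNA repair genes, 0 rose and 11 fell of 23 tested, and 6 rose and 13 fell without replicate 3, with 0 higher and 16 lower on the TPM scale. Without IL-33 replicate 4 or without unstimulated replicate 3, 7 fell. The histone variant H2afx (-1.50 and -1.27) and the recombination gene Brca1 (-0.66 and -0.56) fell. None of 19 replication-dependent histone genes tested passed with all 8 libraries by edgeR, with 0 at an unadjusted p below 0.05, and 1 rose without replicate 3. DESeq2 called 0, voom with sample weights 4 and limma on log2(TPM + 1) 2 members of the list. Their mRNAs lack poly(A) tails, and poly(A) RNA was sequenced.

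Regulators of the G1 phase were mixed. Ccnd2, a D-type cyclin, rose from 598, 543, 566 and 532 to 877, 963, 715 and 936 CPM (log2 fold change 0.64, standard error 0.10, adjusted p = 0.00245, and 0.73 without replicate 3), with an adjusted p of 0.081 by limma on the TPM scale. Cdkn1a, the CDK inhibitor p21, rose from 182, 172, 209.7 and 187 to 495, 567, 343 and 599.6 CPM (log2 fold change 1.42, standard error 0.17, adjusted p = 0.000525, and 1.56 without replicate 3). Both lay above the unstimulated range in every IL-33 library. The inhibitor Cdkn2c (-1.81 and -1.67) and the factors E2f2 (-1.75 and -1.58) and E2f7 (-1.15 and -0.94) fell. Of the whole list, 3 rose and 10 fell of 24 tested, and 6 rose and 13 fell without replicate 3. On the TPM scale 1 was higher and 13 lower, and without unstimulated replicate 2, 5 rose. Of p53 target genes, a list that includes Cdkn1a, 8 rose and 2 fell of 20 tested, and 11 rose and 3 fell without replicate 3, with 6 higher and 3 lower on the TPM scale. The p53 ligase Mdm2 (0.90 and 1.02) and the kinase Plk3 (1.13 and 1.28) rose, while Perp (-2.02 and -1.75) and Trp53inp1 (-1.11 and -1.07) fell.

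Survival genes changed in both directions, with 6 higher and 6 lower of 22, 9 and 9 without replicate 3, and 4 higher and 9 lower on the TPM scale. Bcl2, an inhibitor of apoptosis, fell from 124, 153, 138 and 127 to 73.5, 70.4, 64.4 and 75.3 CPM (log2 fold change -0.93, standard error 0.09, adjusted p = 0.000158, and -0.89 without replicate 3). Bcl2l11, the pro-apoptotic BIM, fell from 25.5, 28.2, 26.7 and 24.5 to 6.604, 8.42, 7.68 and 7.61 CPM (log2 fold change -1.79, standard error 0.12, adjusted p = 3.8e-05, and -1.80 without replicate 3). Neither overlapped between groups. The inhibitors Bcl2l1 (1.22 and 1.33), Birc3 (1.25 and 1.36) and Bcl2a1d (2.18 and 2.39) rose. Bcl2a1d has close copies in the mouse genome, so its reads may be shared with them.

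**Figure D4:**
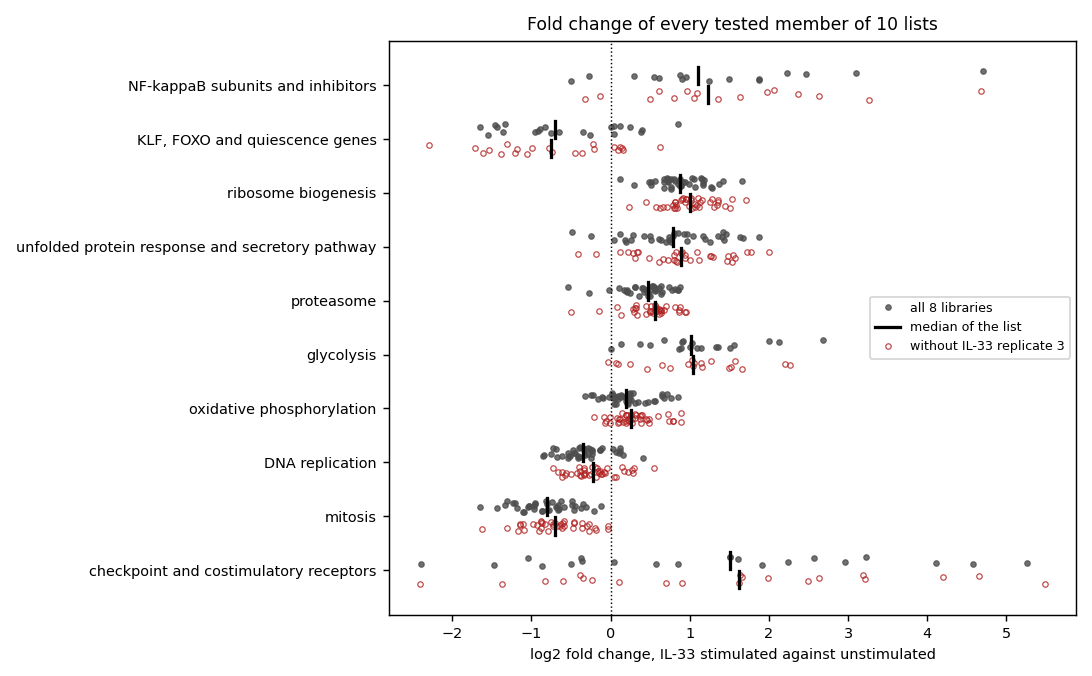
Log2 fold change (horizontal) of every tested member of 10 gene lists, with all 8 libraries (grey, filled) and without IL-33 replicate 3 (red, open), and a black bar at the median of each list. Ribosome biogenesis members all lie above 0, with medians of 0.87 and 0.998, and mitosis members all lie below 0, with medians of -0.81 and -0.71.

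Adhesion and migration genes held some of the larger falls. Of the integrins, 4 rose and 5 fell of 20 tested, and 5 rose and 8 fell without replicate 3, with 1 higher and 6 lower on the TPM scale. Without unstimulated replicate 2 or 3, 2 rose. Itgb7, which pairs with alpha-4 and alpha-E chains in gut homing and epithelial retention, fell from 1088, 898, 1044 and 981 to 399, 383, 217 and 308 CPM (log2 fold change -1.62, standard error 0.19, adjusted p = 0.000466, and -1.46 without replicate 3). Itgb8, whose integrin activates latent TGF-beta, was at 1.56, 0.601, 0.892 and 0.599 CPM and 3.22, 3.37, 26.6 and 3.47 CPM (log2 fold change 3.31, standard error 0.86, adjusted p = 0.0199, against 1.88 and adjusted p = 0.000648 without replicate 3). Itgb7 was separate in every library, whereas the size of the change in Itgb8 rests on replicate 3. Without unstimulated replicate 2, 3 or 4 the adjusted p of Itgb8 was above the threshold, at most 0.0643. Itga3 (0.97 and 1.01), a laminin receptor chain, rose, while Itgae (-0.87 and -0.75), the partner of Itgb7 in the epithelium, and Itgal (-0.21 and -0.07), a chain of LFA-1, did not pass with all 8 libraries by edgeR, while Itgae passed with DESeq2 and both passed on the TPM scale.

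Among selectins and other adhesion molecules, 7 rose and 6 fell of 26 tested, and 9 rose and 13 fell without replicate 3, with 4 higher and 9 lower on the TPM scale. Alcam, a ligand of CD6, rose from 16.3, 16.98, 16.8 and 17.9 to 108, 112, 222 and 108 CPM (log2 fold change 3.01, standard error 0.26, adjusted p = 0.000111, and 2.69 without replicate 3). Each IL-33 library was above the unstimulated ones, and replicate 3 was at the highest value. Icam1 (1.182 and 1.31), the ligand of LFA-1, rose, and the tetraspanin Cd151 (-1.09 and -1.09) fell. Of cytoskeleton and motility genes, 1 rose and 11 fell of 31 tested and 2 rose and 19 fell without replicate 3, with 1 higher and 24 lower with limma on log2(TPM + 1). Leaving out unstimulated replicate 3 gave 4 lower. Vimentin, Vim (-0.81 and -0.68), the myosin Myo1f (-1.86 and -1.79) and Arhgap15 (-0.70 and -0.72) fell, and the tubulin Tubb6 (1.17 and 1.32) rose. Actb (-0.04 and 0.02), beta-actin, and the tubulin Tuba1b (-0.24 and -0.16) had adjusted p of 0.819 and 0.169.

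Of the chemokine and egress receptors, 5 rose and 8 fell of 21 tested and 6 rose and 9 fell without replicate 3, Ccr9 among the latter, with 3 higher and 9 lower on the TPM scale. Ccr4, a receptor of type 2 lymphocytes, rose from 46.5, 48.98, 55.2 and 37.9 to 315, 320.1, 229 and 346 CPM (log2 fold change 2.68, standard error 0.16, adjusted p = 2.47e-05, and 2.80 without replicate 3). S1pr1, the receptor by which lymphocytes leave tissue, was at 18.5, 27.2, 30.4 and 16.5 CPM and 16.9, 22.4, 62.4 and 20.1 CPM, and its log2 fold change was 0.39 with all 8 libraries and -0.22 without replicate 3, with adjusted p of 0.518 and 0.372. Ccr4 was separate between groups and S1pr1 was not. The chemokine receptor Ccr1 (2.54 and 2.61) rose and the lysophosphatidylserine receptor P2ry10 (-1.71 and -1.72) fell. Of extracellular protease and matrix genes, 4 rose and 7 fell of 25 tested, and 6 rose and 15 fell without replicate 3, with 3 higher and 14 lower on the TPM scale. The collagenase Mmp13 (2.69 and 2.43) and the urokinase receptor Plaur (1.82 and 1.86) rose, while urokinase itself, Plau (-0.80 and -0.77), and the membrane-anchored Mmp25 (-2.05 and -1.93) fell. Timp1 (0.37 and 0.50), an inhibitor of matrix proteases, did not pass in either fit.

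Checkpoint and costimulatory receptors and their ligands rose in 13 and fell in 5 of 21, and 13 rose and 6 fell without replicate 3, with medians of 1.502 and 1.62. Pdcd1, the inhibitory receptor PD-1, rose from 44.1, 37.3, 38.03 and 36.9 to 108, 106, 82.8 and 149.95 CPM (log2 fold change 1.51, standard error 0.17, adjusted p = 0.00041, and 1.63 without replicate 3). Tigit, another inhibitory receptor, rose from 3.65, 1.72, 2.29 and 3.12 to 71.1, 64.2, 55.4 and 67.8 CPM (log2 fold change 4.58, standard error 0.25, adjusted p = 1.56e-05, and 4.65 without replicate 3). Icos, which sustains ILC2s, fell from 959, 874, 868 and 975 to 781, 668, 691 and 722 CPM (log2 fold change -0.36, standard error 0.08, adjusted p = 0.0104, and -0.34 without replicate 3), with an adjusted p of 0.0609 by edgeR without the filter on low counts. The groups were separate for each of the 3. Tnfsf8 (4.11 and 4.20), the ligand of CD30, and Tnfrsf4 (2.96 and 3.18), the receptor OX40, rose. Under each scaling tried, 12 or 13 members of this list rose and 5 or 6 fell, and without unstimulated replicate 3 the members that fell were 3.

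Interferon-stimulated genes varied between libraries of the IL-33 group. Of 25 tested, 5 rose and 0 fell, and 11 rose and 0 fell of 26 without replicate 3, while limma on log2(TPM + 1) called 1 higher and 1 lower. Leaving out IL-33 replicate 4 gave 14 higher, and leaving out IL-33 replicate 1 or 2 or unstimulated replicate 3 or 4 gave 2 or 3. Isg15, a ubiquitin-like protein induced by interferon, was at 4.58, 2.75, 2.97 and 3.66 CPM without and 12.1, 27.2, 5.52 and 1.27 CPM with IL-33 (log2 fold change 1.72, standard error 0.77, adjusted p = 0.121, against 1.96 and adjusted p = 0.0324 without replicate 3). IL-33 replicate 4 lay below all unstimulated libraries, while replicates 1 to 3 lay above them. Ifit1 (3.04 and 3.20) had the same order of IL-33 libraries, and lost its call when any of 5 libraries was left out, with a highest adjusted p of 0.084. It also missed the threshold by edgeR with the replicate block, at an adjusted p of 0.117, and by voom with sample weights, at 0.087. The antiviral membrane protein Bst2 (0.80 and 0.89) rose.

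Transcripts of other cell types were measured beside these results. Of 14 T cell markers, 8 were lower and 0 higher with all 8 libraries and 9 lower and 0 higher without replicate 3, while 4 or 5 were lower without IL-33 replicate 1 or 2 or unstimulated replicate 2 or 3. Their sum was 759, 886, 829 and 805 TPM in the unstimulated and 223, 236, 158 and 217 TPM in the IL-33 libraries. Trbc2, a constant segment of the T cell receptor beta chain, fell from 117, 122, 117 and 114 to 34.1, 35.2, 24.2 and 35.1 CPM (log2 fold change -1.86, standard error 0.12, adjusted p = 3.41e-05, and -1.75 without replicate 3). The groups were separate in both measures. The kinase Lck (-1.42 and -1.35) and the receptor chain Cd3g (-1.55 and -1.43) fell. Cd3e (-0.86 and -0.62), a chain of the CD3 the cells were sorted against, had an adjusted p of 0.128 and was at most at 9.48 CPM in any library. Epithelial, endothelial and stromal markers summed to 636, 575, 683 and 448 TPM and 181, 152, 234 and 178 TPM, with 1 higher and 6 lower of 12 tested, and 1 higher and 9 lower without replicate 3. Without IL-33 replicate 1 or without unstimulated replicate 3 or 4, 3 were lower. Col1a2, a collagen of fibroblasts, fell from 176, 94.8, 192 and 124 to 50.8, 41.7, 51.4 and 56.8 CPM (log2 fold change -1.55, standard error 0.23, adjusted p = 0.00138, and -1.56 without replicate 3). Acta2 (-1.86 and -1.84) of smooth muscle fell too. Sftpc, which defines type II pneumocytes, had at most 0.127 CPM in any library.

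Of the other lists, Kit, which mast cells and some ILCs express, fell from 316, 299, 356 and 298 to 169, 165, 129 and 185 CPM (log2 fold change -0.97, standard error 0.12, adjusted p = 0.000544, and -0.87 without replicate 3). Of 4 B cell markers tested, 1 was higher and 1 lower, and 1 was higher and 3 lower without replicate 3, while other single libraries left out gave 0 or 1 in each direction. Myeloid markers summed to 517, 276, 295 and 241 TPM and 238, 123, 252 and 87.03 TPM, with 0 of 11 past the threshold by edgeR with all 8 libraries and 0 at an unadjusted p below 0.05. DESeq2 called 0 members, voom with sample weights 5 and limma on log2(TPM + 1) 2. Without replicate 3, 4 of them were lower. The macrophage gene Lyz2 (-0.82 and -0.98) had an adjusted p of 0.16. NK and ILC1 markers summed to 275, 145, 169 and 183 TPM and 96.1, 132, 117 and 77.1 TPM, with 1 higher and 2 lower of 8 tested in either fit and 1 or 2 in each direction without any other single library. Of 23 neuron and glia markers tested, 1 was higher and 0 lower with all 8 libraries, and 1 was higher and 14 lower without replicate 3. The one that rose was Gap43, a protein of growing axons, at 8.61, 7.41, 7.01 and 5.703 CPM without and 39.2, 37.8, 206 and 61.3 CPM with IL-33 (log2 fold change 3.57, standard error 0.60, adjusted p = 0.00277, and 2.68 without replicate 3). Its IL-33 libraries were all above the unstimulated ones, replicate 3 or not. Of 6 non-polyadenylated RNAs tested, 0 passed with all 8 libraries by edgeR, where 2 had an unadjusted p below 0.05, and 2 were lower without replicate 3. DESeq2 and limma on log2(TPM + 1) called 0 and voom with sample weights 1. The part that these other transcripts have in the changes of ILC2 genes was not tested.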

How the data were processed

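RNA from sorted lung ILC2s of 8 mice, 4 unstimulated and 4 given IL-33, was sequenced by the authors from poly(A) RNA as paired-end reads (SMART-seq v4 and Nextera XT). According to the study's methods, reads were trimmed with cutadapt, aligned to GRCm38 with HISAT2 and counted with Subread, while the submitters' processing notes also list Bowtie2, DESeq2 and mm10. The strand setting of the counting is not given in the sources used here, so a gene and its antisense partner cannot be told apart.

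The deposited table of counts holds unnormalized whole-number counts per gene and was tested as deposited. TPM values, which the authors had computed per library from these counts and gene lengths, were used for sums of gene lists, for shares of a library and for the limma fits.

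Counts of 8 libraries were normalized by TMM, filtered with filterByExpr and tested with edgeR 4.0.16 (quasi-likelihood, two-sided, Benjamini-Hochberg adjustment over all genes tested, threshold 0.05) under R 4.3.3, and again without IL-33 replicate 3. CPM are TMM-normalized counts per 1000000, and 3 counts were taken as the detection floor. Leaving out a library, DESeq2 1.42.0, other size factors and filters, a replicate block, limma 3.58.1 on log2(TPM + 1) and log2(TPM + 0.1) (mean TPM of 1 or more), and voom with sample weights were the alternatives. The scripts were tested on simulated counts.

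The genes and the 54 gene lists were chosen with earlier results of these data known, so their counts are descriptions beside the shares over all genes, with no test of a list. Genes named were the study's markers, the 10 largest rises and 10 largest falls among protein-coding genes past the threshold in both fits (mean of 5 CPM or more, no overlap of groups), and, for each list, its first 2 members and the 4 largest changes under the same rule. Foxp1, Polr1a, Polr1e, Hadhb and Etfdh were named outside this rule, by their results, and some genes only for holding a motif. Lists of cell type markers were open to naming in full. Genes of this set whose call was lost on leaving out 1 library are named only where that is stated, and some genes of the set are not reported here. Promoter windows came from RefSeq (GRCm38.p6) and were matched by symbol. The other 6 libraries of the series, from a Blimp-1 experiment, were not used here.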

Additional observations from a re-analysis of the deposited data

Results flagged for a closer look

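Each group of 4 libraries was examined for a single library far from its nearest neighbour relative to the range of the group, which chance alone produces in about 1 in 20 groups. Of 174 groups of values examined, 21 held such a library and 14 of these were IL-33 replicate 3. In that library Snap25 stood at 547.6 CPM, Gap43 at 205.6 CPM, Rn7sk at 15450 CPM, the summed neuron and glia markers at 2385 TPM and the summed non-polyadenylated RNAs at 147900 TPM, all above the rest of the group. Egr1 at 98.11 CPM, Fos at 18.32 CPM, Itgb8 at 26.6 CPM, Alcam at 222 CPM and S1pr1 at 62.35 CPM were likewise above the other IL-33 libraries. Gata3 at 491.9 CPM, Hk2 at 277 CPM and Trbc2 at 24.23 CPM lay below them, as did the total of 1.047e+07 counts. The part of the neuronal and non-polyadenylated transcripts in these values was not tested.

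In the other libraries, single values stood apart for the cytokine genes Il9, at 0.06944 CPM in unstimulated replicate 1, and Cxcl2, at 375.3 CPM in IL-33 replicate 4. Csn1s1 was at 0.126 CPM in unstimulated replicate 4, where the rest of the group had no count. Epcam was high in IL-33 replicate 1, at 3.549 CPM. Among unstimulated libraries, Egr1 at 12.81 CPM and Pdcd1 at 44.13 CPM were highest in replicate 1, and Hk2 at 80.85 CPM was lowest in replicate 2. None of these values bridged the gap between the 2 groups.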

How the results depend on the processing

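With all 8 libraries, 2508 genes were higher and 2484 lower. Leaving out 1 library at a time gave 1852 to 4328 higher and 1820 to 4666 lower genes, with the highest counts without IL-33 replicate 3 and the lowest without unstimulated replicate 3. With limma on log2(TPM + 1), 1032 were higher and 4655 lower, with limma on log2(TPM + 0.1) 1027 and 4546, and with voom and sample weights, which gave IL-33 replicate 3 little weight, 4556 and 4877. DESeq2, other size factors and other filters kept both counts within 1.5 times of those with all 8 libraries. Ribosome biogenesis members that rose numbered 23 under both limma fits on TPM and 32 to 40 under the others. Across all alternatives, 28 to 38 mitosis genes fell, 20 to 32 genes of the unfolded protein response and secretory pathway rose and 13 to 17 glycolysis genes rose. Allowing up to 10 counts in the lower group raised the genes switched on from 1 to 6, and a minimum of 1 CPM in the higher group gave 9 on and 3 off.

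Of 193 genes named as called, 174 passed in the same direction under every alternative, 19 missed the threshold under at least 1, and 1 of these, Etfdh, reversed, at -0.10 and -0.11 under the limma fits on TPM. Of the 19, 13 besides Etfdh missed it under the limma fits on TPM, as named above. Icos missed it without the filter on low counts. Klf2, Ifit1 and Etfdh missed it by edgeR with the replicate block (adjusted p of 0.0698, 0.117 and 0.101), and Ifit1 also by voom with sample weights (0.087). Etfdh and Mcm2 missed it under other edgeR settings and on leaving out single libraries. Ifit1 and Itgb8 missed it on leaving out single libraries as given above, and Egr1 and Mki67 on leaving out 1 library. Of 28 named genes that were not called, 20 passed under at least 1 alternative. The others that reversed were among the uncalled. S1pr1 was at -0.10 under both limma fits on TPM and -0.24 with voom, Cs at -0.13 under both, Ndufa9 at -0.037 with library size alone and -0.21 under both, Cox5a at -0.081 and -0.082, and mt-Nd1 at -0.071 with library size alone and -0.23 under both. Polr1a was at -0.060 and -0.063 under the limma fits on TPM, and Polr1e at -0.047 with library size alone and -0.22 and -0.23 under them. With voom, Snap25 was at -0.71, Rn7sk at -0.69 and Actb at 0.018. Leaving out single libraries moved S1pr1 from -0.22 to 0.58, Snap25 from -0.75 to 3.90, Rn7sk from -0.78 to 3.85 and Actb from -0.11 to 0.039. Causes of these changes were not tested, except that the TPM fits carry the shift of the median of all genes given above.

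The replicate numbers were not taken to pair the samples, since the design text describes 8 individual mice divided between the groups. The correlation of same-numbered deviations from the group means was -0.12, 0.26, 0.43 and 0.23 for numbers 1 to 4. IL-33 replicates 2, 3 and 4 each correlated best with the unstimulated library of the same number, and IL-33 replicate 1 with unstimulated replicate 4, at 0.29. Whether same-numbered libraries were handled together is not given by the labels and was not tested. A fit with the replicate block gave 1802 higher and 1898 lower genes. Libraries of 10470125 counts or more left genes under about 3 counts undetectable, and the precision of the tests rests on 3 or 4 libraries per group.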
